A study of Mus musculus with 6 samples.

Results

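The Ly49 receptors of mice are encoded by the Klra genes, and 10 of these genes were followed here by their symbols in a table of 55291 symbols: Klra1, Klra3, Klra4, Klra5, Klra6, Klra7, Klra8, Klra9, Klra10 and Klra17. All 10 were present. The table came from sorted ILC1s (type 1 innate lymphoid cells) and NK (natural killer) cells of MC38 tumours, a mouse colon carcinoma line, grown under the skin of wild-type C57BL/6 mice for 14 days. Each cell type had 3 libraries of tumour-infiltrating cells, and no other genotype, drug or tissue was compared. The sources used here do not name the surface markers of the sort. The labels do not state that each library stands for its own mouse, so the p-values cover only the spread between these libraries, which may be technical.

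Ly49 receptors are C-type lectin-like dimers that bind MHC class I proteins or viral mimics of them. Inhibitory members carry an ITIM in the cytoplasmic tail, a tyrosine motif that recruits phosphatases such as SHP-1. Activating members lack it and signal through the adaptors DAP12 and DAP10. In C57BL/6 mice the activating members are Ly49D (Klra4), which can bind MHC class I, and Ly49H (Klra8), which recognises a protein of mouse cytomegalovirus. The other 8 members listed are inhibitory. They include Ly49C (Klra3) and Ly49I (Klra9), receptors for the C57BL/6 molecule H-2Kb, and Ly49A (Klra1) and Ly49G (Klra7), known for binding H-2Dd. Each NK cell expresses only some of the genes, in combinations that vary from cell to cell. Ly49E (Klra5) is best known from fetal NK cells and liver ILC1s, and Ly49Q (Klra17) from plasmacytoid dendritic cells and neutrophils.

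The start of the coding sequence differs between the roles at the ITIM. The first 60 coding bases of the 10 members, from the GENCODE M21 transcripts on GRCm38, are given 5′ to 3′, with capitals for bases that differ from Klra7.
Klra4: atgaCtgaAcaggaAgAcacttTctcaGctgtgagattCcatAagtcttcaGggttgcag
Klra8: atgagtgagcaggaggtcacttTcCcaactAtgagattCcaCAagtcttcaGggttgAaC
Klra1: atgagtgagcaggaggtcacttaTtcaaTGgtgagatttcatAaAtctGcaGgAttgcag
Klra3: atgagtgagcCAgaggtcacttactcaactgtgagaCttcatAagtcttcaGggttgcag
Klra5: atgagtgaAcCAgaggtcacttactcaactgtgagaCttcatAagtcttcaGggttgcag
Klra6: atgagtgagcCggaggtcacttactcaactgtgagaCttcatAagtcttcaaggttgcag
Klra7: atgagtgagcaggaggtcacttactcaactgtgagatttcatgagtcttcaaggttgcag
Klra9: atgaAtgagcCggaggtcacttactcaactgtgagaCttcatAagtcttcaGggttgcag
Klra10: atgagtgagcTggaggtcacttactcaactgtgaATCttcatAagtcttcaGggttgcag
Klra17: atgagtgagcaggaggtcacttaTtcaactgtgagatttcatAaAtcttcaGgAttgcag
Positions are counted from 1 at the first base of the start codon, and Klra7 is the sequence compared with. Both activating genes carried A23T and T39C, and none of the 8 inhibitory members did. Base 23 lies in codon 8, which encodes the ITIM tyrosine in all 8 inhibitory members and no tyrosine in Klra4 or Klra8. Beyond this stretch the activating genes were not each other's closest relatives. Their coding sequences were 78.6% identical, while Klra8 was 91.9% identical to the inhibitory Klra9 and Klra4 was 88.3% identical to the inhibitory Klra1.

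Shared sequence also limits how well reads of 50 bases can be placed. Windows of 50 bases were taken from all annotated transcripts of the 14 rows whose symbol starts with Klra, and a window was shared where a second Klra gene held it exactly. The share was 39.8% for Klra10, 33.1% for Klra8, 31.5% for Klra9 and 20.7% for Klra3. It was 12.3% for Klra7, 4.35% for Klra4, 2.98% for Klra1, 2.62% for Klra6 and 0.655% for Klra5, and no window of Klra17 was shared. Klra8 shared 230 of its 1129 windows with the pseudogene Klra14-ps and 121 with Klra9, and 0 with Klra4. Klra7 shared windows with the pseudogene Klra13-ps alone, 155 of 1260. With up to 2 mismatches the shares were 91.3% for Klra10, 88.0% for Klra8, 85.4% for Klra9, 82.3% for Klra3 and 51.1% for Klra7. They were 44.3% for Klra6, 27.9% for Klra4, 24.3% for Klra5, 19.0% for Klra1 and 0.589% for Klra17. The sources used here do not say how the authors treated reads that map to several places. The split among Klra3, Klra8, Klra9, Klra10 and the pseudogenes is therefore uncertain, as is that between Klra7 and Klra13-ps. As an example of a read that fits both an activating and an inhibitory gene, Klra8 and Klra9 shared a run of 106 coding bases, from base 481 to base 586 in each, whose first 50 bases are shown.
Klra8 and Klra9: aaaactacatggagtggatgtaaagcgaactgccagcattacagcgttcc

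**Figure D1:**
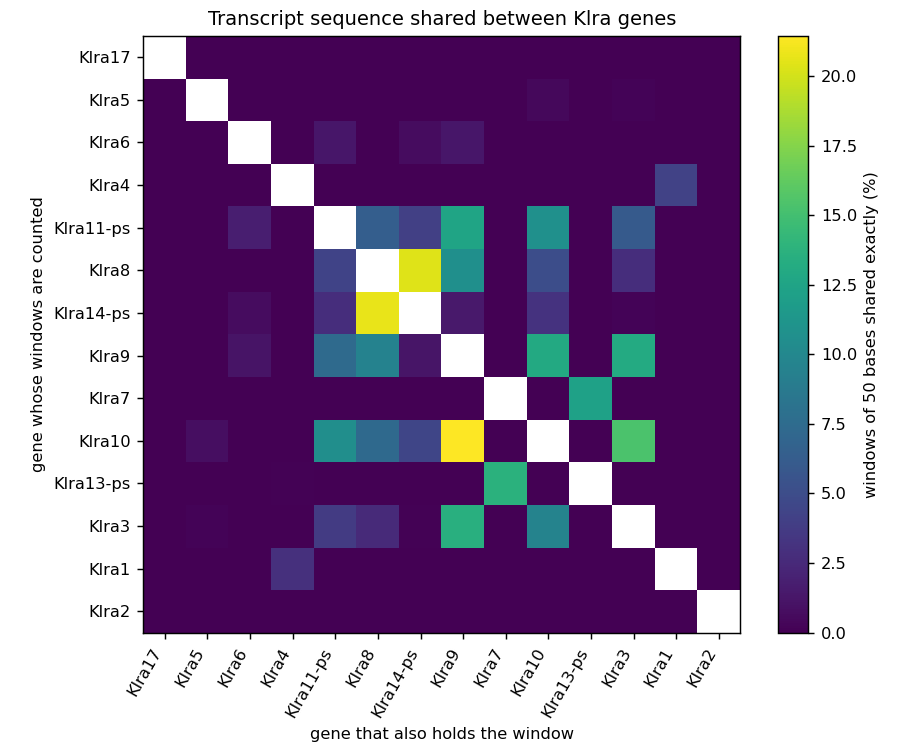
Percent of the 50-base transcript windows of the gene on the vertical axis that the gene on the horizontal axis also holds exactly, with genes in their order on chromosome 6. Shared windows gather among Klra8, Klra9, Klra10, Klra3, Klra11-ps and Klra14-ps, while Klra4 shares 51 of its 52 shared windows with Klra1, and Klra7 shares with Klra13-ps alone.

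Before the members are compared, the libraries need a word, since cell type was not all that set them apart. The totals ran from 16931099 to 20224847 counts in ILC1s and from 19551574 to 19814075 in NK cells. The NK list, Eomes, Itga2, Ncr1 and Klrb1c, summed to 758 to 913 CPM (counts scaled to library size) in ILC1 samples. In NK cells it summed to 1464 to 2419 CPM. The ILC1 list, Itga1, Cxcr6 and Zfp683, summed to 234 to 332 CPM in ILC1 samples and 50.5 to 65.6 CPM in NK cells. Within the NK list, Klrb1c, Ncr1 and Eomes averaged 351, 347 and 125 CPM in ILC1 samples, against 900, 570 and 494 CPM in NK cells. Klrb1c and Ncr1 were thus high in both cell types. CPM were scaled by TMM factors. A list of 7 macrophage markers summed to 8917 CPM in ILC1 replicate 3 and to 165 and 221 CPM in the other ILC1 libraries, against 84.1 to 166 CPM in NK cells, and none of the 7 was at 0 in all libraries. A list of 5 fibroblast markers summed to 749 and 1137 CPM in ILC1 replicates 1 and 2 and to 36.6 CPM in ILC1 replicate 3, against 639 CPM in NK replicate 3 and 3.60 and 8.06 CPM in NK replicates 1 and 2. The 6 T cell markers summed to 59.4, 60.1 and 180 CPM in ILC1 replicates 1 to 3 and to 37.2 to 45.5 CPM in NK cells. Across genes, log2 CPM of NK replicate 3 correlated at 0.977 and 0.971 with ILC1 replicates 1 and 2, and at 0.880 with each of the other NK libraries. The part of these other cells in the Klra levels was not tested, and results are also given for ILC1 replicates 1 and 2 against NK replicate 3, which resembled each other.

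The comparison asked how far tumour ILC1s and NK cells differ in Ly49 mRNA. The 10 members together reached 378 ± 128 CPM in ILC1 samples and 1905 ± 417 CPM in NK cells (n = 3 each, mean ± SD), a level 5.03-fold higher in NK cells. By library the sums were 445, 459 and 231 CPM in ILC1 replicates 1 to 3, against 2294, 1956 and 1465 CPM in NK replicates 1 to 3. Every ILC1 library lay below every NK library. In bulk RNA, fewer cells that express a gene and less RNA per cell cannot be told apart. Whether the ILC1 samples held some NK cells was not tested. Of the 9 members with enough counts to be tested, 8 were lower and 1, Klra5, was higher in every ILC1 library than in every NK library. Over all 14475 genes tested, 13.3% were lower and 12.5% were higher without overlap.

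No member passed the edgeR quasi-likelihood test at a Benjamini-Hochberg adjusted p under 0.05 over all genes, a threshold that 12 genes passed (0.0829%), 1 of them lower (0.00691%) and 11 higher (0.076%) in ILC1s. The adjusted p-values of the 9 tested members ran from 0.0974 to 0.186. At an unadjusted p under 0.05, 8 members were lower and 1 was higher, where 8.82% and 6.95% of all genes were. DESeq2 called the same 8 members lower and Klra5 higher, where it called 4.03% of all genes lower and 2.94% higher, and limma-voom called 0 of the 9, where it called 0.0138% of all genes lower and 0.111% higher. For any gene alone, the smallest p of an exact two-sided permutation test with 3 against 3 libraries is 0.1. The median log2 fold change, ILC1 minus NK, was -2.04 over the 9 tested members and 0.081 over all genes tested.

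**Figure D2:**
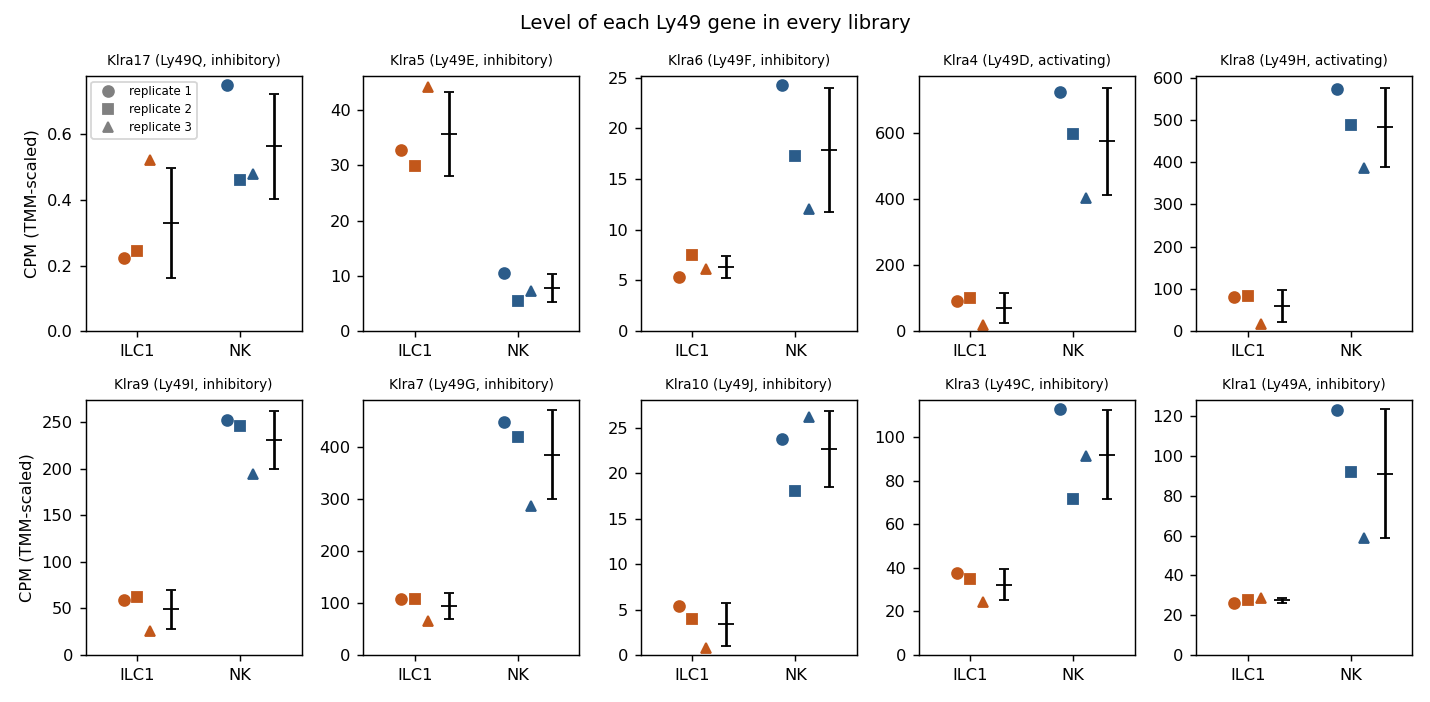
TMM-scaled CPM of the 10 Ly49 genes, each in its own panel with its own vertical axis from 0. Points are libraries (circle, square and triangle for replicates 1, 2 and 3) and bars give the mean ± SD of 3 libraries. ILC1 points lie below NK points for 8 genes and above them for Klra5, and the groups overlap for Klra17.

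Over all 6 libraries the activating genes had the largest fitted fold differences among the tested members, with the inhibitory Klra10 within their SE. With library sets as a term Klra10 was the largest, as given below for all members. Klra4 (Ly49D) stood at 90.3, 101 and 18.7 CPM in ILC1 replicates 1 to 3, against 725, 596 and 401 CPM in NK replicates 1 to 3. ILC1 replicate 3 was the lowest, and the highest ILC1 library lay well below the lowest NK library. The log2 fold change was -3.04 ± 0.67 (SE), with an edgeR adjusted p of 0.159 and a DESeq2 adjusted p of 4.8e-06. Klra8 (Ly49H) stood at 80.9, 83.4 and 16.3 CPM in ILC1 replicates 1 to 3, against 573, 489 and 385 CPM in NK replicates 1 to 3. It followed the same order of libraries within ILC1s and within NK cells as Klra4. Its log2 fold change was -3.00 ± 0.64 (SE), with an edgeR adjusted p of 0.154 and a DESeq2 adjusted p of 2.7e-06.

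The 2 activating genes stayed in nearly the same proportion in all 6 libraries. The ratio of Klra4 to Klra8 CPM was 1.12, 1.21 and 1.15 in ILC1 replicates 1 to 3, against 1.27, 1.22 and 1.04 in NK replicates 1 to 3. The groups overlapped in this ratio, although the mean level was 8.21-fold higher in NK cells for Klra4 and 8.01-fold for Klra8. As given above, the transcripts of these genes had no 50-base window in common.

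Among the inhibitory genes, Klra7 and Klra9 had the highest levels in NK cells. Klra7 (Ly49G) stood at 108, 108 and 66.0 CPM in ILC1 replicates 1 to 3, against 449, 420.4 and 288 CPM in NK replicates 1 to 3. The groups did not overlap, and the log2 fold change was -2.04 ± 0.28 (SE, edgeR adjusted p = 0.0974, DESeq2 adjusted p = 1.7e-10). Klra9 (Ly49I) stood at 59.0, 62.4 and 25.3 CPM in ILC1 replicates 1 to 3, against 252, 246 and 195 CPM in NK replicates 1 to 3. Its log2 fold change was -2.24 ± 0.37 (SE, edgeR adjusted p = 0.106, DESeq2 adjusted p = 8.5e-08). For both genes ILC1 replicate 3 was the lowest library of all.

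Klra3 and Klra1 differed less in fold terms. Klra3 (Ly49C) stood at 37.5, 34.9 and 24.2 CPM in ILC1 replicates 1 to 3, against 113, 71.8 and 91.3 CPM in NK replicates 1 to 3, a log2 fold change of -1.51 ± 0.24 (SE, edgeR adjusted p = 0.105). Klra1 (Ly49A) stood at 26.0, 27.7 and 28.6 CPM in ILC1 replicates 1 to 3, against 123, 91.8 and 58.6 CPM in NK replicates 1 to 3, a log2 fold change of -1.73 ± 0.28 (SE, edgeR adjusted p = 0.105). The ILC1 libraries were close together for Klra1, while the NK libraries spread widely, and the groups did not overlap for either gene. Klra6 (Ly49F) and Klra10 (Ly49J, an inhibitory member most like Klra9 and Klra3) were less abundant. Klra6 ran from 5.34 to 7.503 CPM in ILC1 samples and from 12.1 to 24.2 CPM in NK cells, with a log2 fold change of -1.50 ± 0.33 (SE, edgeR adjusted p = 0.151). Klra10 ran from 0.753 to 5.399 CPM in ILC1 samples and from 18.1 to 26.2 CPM in NK cells, with a log2 fold change of -2.74 ± 0.70 (SE, edgeR adjusted p = 0.186).

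Klra5 (Ly49E) was the member with the opposite sign. It stood at 32.8, 29.8 and 44.2 CPM in ILC1 replicates 1 to 3, against 10.6, 5.49 and 7.35 CPM in NK replicates 1 to 3. The mean was 35.6 ± 7.59 CPM in ILC1 samples and 7.81 ± 2.58 CPM in NK cells (SD, n = 3 each), a ratio of ILC1 to NK of 4.56. The log2 fold change was 2.19 ± 0.31 (SE, edgeR adjusted p = 0.101, DESeq2 adjusted p = 2.1e-07). ILC1 replicate 3, the lowest library for Klra4, Klra8, Klra7, Klra9, Klra10 and Klra3, was the highest for Klra5. Klra5 made up 7.38, 6.49 and 19.2% of the summed CPM of the 10 members in ILC1 replicates 1 to 3, against 0.462, 0.281 and 0.502% in NK replicates 1 to 3. Its transcripts shared 9 of 1373 windows with other Klra genes.

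Klra17 (Ly49Q) was near the detection limit and was not tested. It held 4, 5 and 9 counts in ILC1 replicates 1 to 3, against 15, 9 and 10 counts in NK replicates 1 to 3, or 0.223, 0.244 and 0.522 CPM in ILC1 samples, against 0.749, 0.462 and 0.480 CPM in NK cells. The groups overlapped, and a limit of 3 counts corresponds to 0.144 to 0.174 CPM in these libraries, for counting error only. Of 6 markers of plasmacytoid dendritic cells, which express Ly49Q, the summed level was 128 to 158 CPM in ILC1 samples and 71.4 to 111 CPM in NK cells, most of it from Bst2 and Tcf4, genes that other cells also use.

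Within the libraries that resembled each other, the same members were lower and higher. The mean of ILC1 replicates 1 and 2 was 95.6 CPM for Klra4, against 401 CPM in NK replicate 3. For Klra8 it was 82.1 CPM in these ILC1 libraries, against 385 CPM in NK replicate 3. For Klra7 the values were 108 CPM in these ILC1 libraries and 288 CPM in NK replicate 3, and for Klra9 60.7 CPM in these ILC1 libraries and 195 CPM in NK replicate 3. Klra5 again had the opposite sign, with 31.3 CPM in these ILC1 libraries and 7.35 CPM in NK replicate 3. A fit with 3 library sets as a term takes the difference between cell types from these 3 libraries. The sets were defined after the data were seen. This fit gave log2 fold changes of -2.07 for Klra4, -2.23 for Klra8, -1.41 for Klra7, -1.68 for Klra9, -2.48 for Klra10, -1.33 for Klra3, -1.13 for Klra1, -0.91 for Klra6 and 2.09 for Klra5. Klra10 thus had the largest difference in this fit, ahead of both activating genes. Every tested member lay closer to 0 than over all libraries, where Klra4 was at -3.04 and Klra8 at -3.00. Klra4, Klra8, Klra7 and Klra9 passed edgeR's test there, with adjusted p-values of 0.0246, 0.0137, 0.0306 and 0.0201, where 0.117% of all genes were called lower. The other tested members, Klra10, Klra3, Klra1, Klra6 and Klra5, did not pass. A lone NK library is assumed in that fit to vary like the others. Without ILC1 replicate 3, the library rich in macrophage markers, the log2 fold changes were -2.59 for Klra4, -2.56 for Klra8 and 1.99 for Klra5, and Klra8 and Klra9 passed edgeR's test with adjusted p-values of 0.0354 and 0.0358, where 0.0729% of all genes were called lower.

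**Figure D3:**
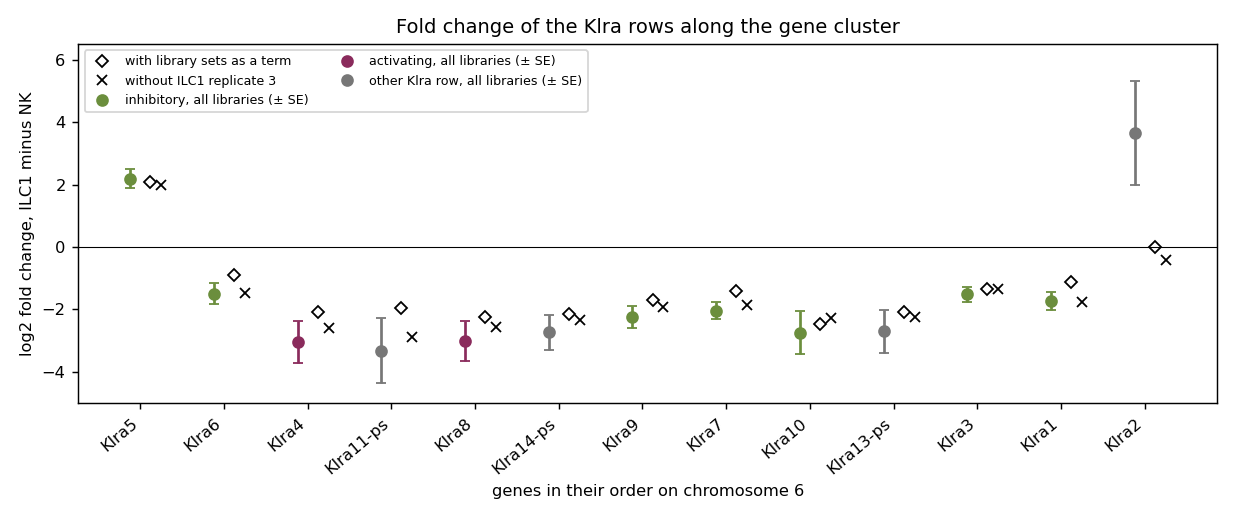
Log2 fold change (ILC1 minus NK) of the Klra rows that were tested, in their order on chromosome 6. Filled circles with bars give the edgeR estimate ± SE over all 6 libraries, diamonds the fit with library sets as a term and crosses the fit without ILC1 replicate 3. Klra5 keeps a positive value in all of these fits and the listed members from Klra6 to Klra1 keep negative ones. Klra2, which is not among the 10, is positive over all 6 libraries. It is at -0.0033, almost no difference, with library sets as a term and at -0.41 without ILC1 replicate 3.

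Members were also summed by role, and the difference between the roles was not tested. The summed CPM of Klra4 and Klra8 was 171, 184 and 34.9 in ILC1 replicates 1 to 3, against 1297, 1084 and 786 in NK replicates 1 to 3. The summed CPM of the 8 inhibitory members was 274, 275 and 196 in ILC1 replicates 1 to 3, against 997, 871 and 679 in NK replicates 1 to 3. The activating mean was 8.12-fold higher in NK cells and the inhibitory mean 3.42-fold. The log2 fold change of the summed rows was -3.02 ± 0.66 (SE) for the activating and -1.77 ± 0.22 (SE) for the inhibitory members. The inhibitory members were not alike: Klra10 was 6.70-fold higher in NK cells, near the activating genes, while Klra5, of the opposite sign, is part of the inhibitory sum. Activating genes thus made up 38.5, 40.1 and 15.2% of the summed level in ILC1 replicates 1 to 3, against 56.6, 55.4 and 53.7% in NK replicates 1 to 3. The groups did not overlap, and the difference in mean share was -24.0 percentage points, or -15.9 without ILC1 replicate 3. The share is a score over chosen genes and was not tested. Divided by exon length the mean share was 32.8% in ILC1s and 56.6% in NK cells, and divided by the windows that no other Klra gene holds it was 34.4% in ILC1s and 57.5% in NK cells.

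**Figure D4:**
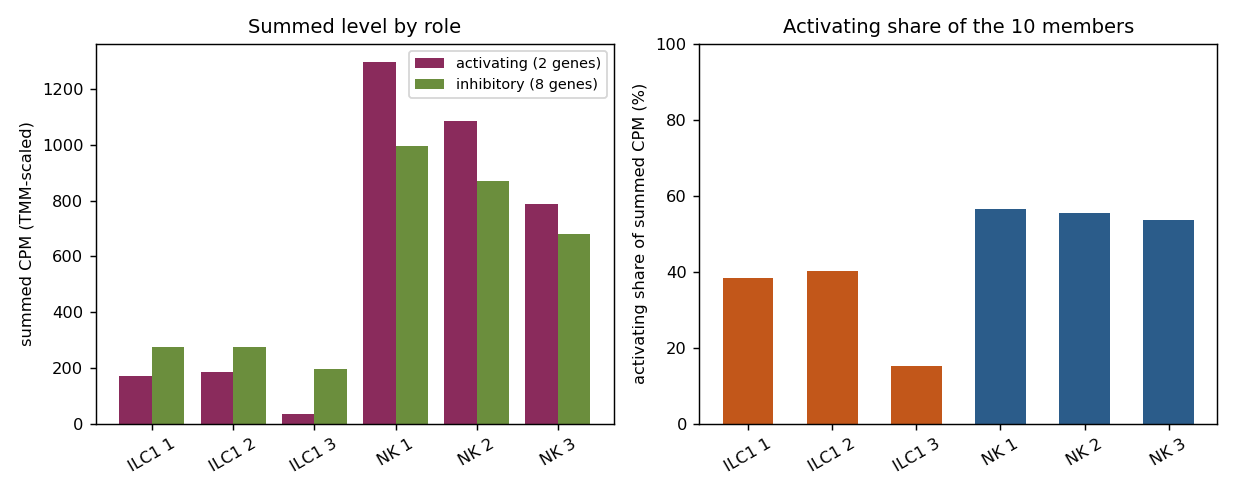
Left, summed TMM-scaled CPM of the 2 activating and the 8 inhibitory members in each library. Right, the activating genes' percent of the sum of all 10. Activating genes are at 15.2 to 40.1% in ILC1 libraries and at 53.7 to 56.6% in NK libraries, with ILC1 replicate 3 the lowest.

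Levels of different members were compared as CPM per kilobase of annotated exon. In ILC1s the order was Klra7 (74.3 ± 19.2), Klra4 (56.2 ± 35.9), Klra8 (51.1 ± 32.3), Klra9 (38.2 ± 16.04), Klra3 (26.0 ± 5.69), Klra5 (25.5 ± 5.43), Klra1 (15.6 ± 0.726), Klra6 (5.67 ± 0.979), Klra10 (4.11 ± 2.89) and Klra17 (0.276 ± 0.140), as mean ± SD of 3 libraries. In this order each gene from Klra7 to Klra3 overlapped the next over its libraries, as did Klra6 and Klra10. In NK cells the order was Klra4 (461 ± 131), Klra8 (409 ± 79.8), Klra7 (305 ± 68.0), Klra9 (181 ± 24.6), Klra3 (74.3 ± 16.6), Klra1 (51.7 ± 18.3), Klra10 (27.6 ± 5.06), Klra6 (16.01 ± 5.47), Klra5 (5.59 ± 1.84) and Klra17 (0.473 ± 0.135). Here Klra4 and Klra8, Klra8 and Klra7, and Klra3 and Klra1 overlapped. Klra5 was thus ninth in NK cells and sixth in ILC1s, level with Klra3.

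The other 4 Klra rows are no members and bear on the reading of the family. Klra13-ps, a pseudogene, stood at 97.8, 74.2 and 14.8 CPM in ILC1 replicates 1 to 3, against 506, 349.8 and 363 CPM in NK replicates 1 to 3, and Klra14-ps at 26.4, 25.6 and 6.43 CPM in ILC1 replicates 1 to 3, against 155, 120.5 and 114 CPM in NK replicates 1 to 3. Both lay lower in every ILC1 library, with log2 fold changes of -2.70 ± 0.69 and -2.74 ± 0.56 (SE) and edgeR adjusted p-values of 0.190 and 0.140. Klra11-ps averaged 0.254 CPM in ILC1 samples and 2.62 CPM in NK cells. With the 3 pseudogene rows added, the log2 fold change of the summed family was -2.41, against -2.33 for the 10 members alone. Klra2 (Ly49B, known from myeloid cells) stood at 1.95, 1.61 and 84.4 CPM in ILC1 replicates 1 to 3, against 2.50, 2.77 and 1.78 CPM in NK replicates 1 to 3, so that its high value was in the library whose macrophage markers summed to 8917 CPM. Its log2 fold change was 3.64 ± 1.67 (SE, edgeR adjusted p = 0.359), and -0.41 without that library.

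The 14 Klra rows lie on the reverse strand of chromosome 6 on GRCm38. The 10 members span from Klra17 (129831154 to 129876672) to Klra1 (130363917 to 130386874), and Klra5 (129898996 to 129917650) is the neighbour of Klra17. Klra4 (130043731 to 130067271) and Klra8 (130115226 to 130129898) are separated by Klra11-ps. Klra9 (130178675 to 130193112), Klra7 (130218605 to 130233322), Klra10 (130269194 to 130281928) and Klra3 (130323289 to 130337574) follow. All 10 are annotated as protein-coding, and counts refer to the whole gene. Klra2 (131219223 to 131247362) stands apart from the others.

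Promoters were compared because most members had the same direction and Klra5 the opposite. RefSeq promoters on GRCm38.p6 were found for 11 of the 14 rows, the 10 members among them. Over these windows of 250 bases before and 50 after the annotated start, Klra5 was 90.8% identical to Klra6 and 76.6% to Klra4, and Klra4 was 89.0% identical to Klra8. The stretch around the longest run that the windows of Klra4, Klra8, Klra5 and Klra6 share is shown 5′ to 3′ on the gene's strand, with that run of 18 bases in capitals. It lies at chr6:130067292-130067389 for Klra4, chr6:130129920-130130017 for Klra8, chr6:129913256-129913353 for Klra5 and chr6:130027015-130027112 for Klra6, on the reverse strand.
Klra4: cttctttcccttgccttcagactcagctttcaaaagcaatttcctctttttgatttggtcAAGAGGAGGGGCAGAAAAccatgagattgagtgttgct
Klra8: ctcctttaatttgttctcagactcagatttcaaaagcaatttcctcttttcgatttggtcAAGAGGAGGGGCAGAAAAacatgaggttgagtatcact
Klra5: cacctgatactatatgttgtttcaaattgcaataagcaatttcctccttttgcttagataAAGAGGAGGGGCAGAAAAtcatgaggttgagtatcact
Klra6: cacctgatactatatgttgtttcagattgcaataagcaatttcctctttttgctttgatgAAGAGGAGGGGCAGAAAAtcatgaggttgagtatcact
The run, AAGAGGAGGGGCAGAAAA, is thus common to 3 genes that were lower and to Klra5, which was higher. It was searched on both strands and found in 5 of 32851 promoter windows, all of these 4 genes, which is in part fixed by how it was chosen. Motifs of factors known at Ly49 genes were searched likewise. The TCF/LEF core CTTTGA was found for Klra6 and Klra7 (5257 of 32851 windows), CTTTGT for Klra7 and Klra9 (18.7%), the RUNX core TGTGGT for Klra1 (16.8%), and the T-box core AGGTGT for none of the 11 (13.7%). Klra5 held none of these 4 motifs in this window, and neither did Klra3, Klra4, Klra8, Klra10 or Klra17. The annotated starts of Klra1 and Klra10 fall in unlike sequence, at most 55.3% identical to any other Klra window, so their windows may not be comparable. The Klra5 stretch shown lies inside the annotated span of that gene (129898996 to 129917650), so it may not be at its most upstream start. Those of Klra4, Klra6 and Klra8 lie outside their genes' spans. The 11 genes had 13 windows, and identities used the last listed window of each gene.

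Partners of Ly49 receptors were looked at through lists of genes, and no gene of these lists passed edgeR's test over all genes. Of 13 activating adaptor and kinase genes, 1 was higher and 3 were lower at an unadjusted p under 0.05, with a median log2 fold change of -0.35, and DESeq2 called 1 lower. Over all genes 6.95% were higher and 8.82% lower at that unadjusted p, DESeq2 called 4.03% lower, and the median was 0.081, and the same shares apply to the lists that follow. Fyn, a Src family kinase, had 171 ± 26.1 CPM in ILC1 samples and 422 ± 73.3 CPM in NK cells, a log2 fold change of -1.31 ± 0.20 (SE, edgeR adjusted p = 0.103). Hcst, which encodes the adaptor DAP10, had 46.5 ± 8.30 CPM in ILC1 samples and 80.8 ± 24.4 CPM in NK cells. Lat, an adaptor, had 29.7 ± 1.14 CPM in ILC1 samples and 50.9 ± 14.9 CPM in NK cells. Vav3, an exchange factor, had 36.9 ± 9.95 CPM in ILC1 samples and 22.6 ± 0.886 CPM in NK cells. The edgeR adjusted p-values of Hcst, Lat and Vav3 were 0.257, 0.248 and 0.243. In NK replicate 3, Hcst and Lat stood at 59.7 and 33.7 CPM, near the highest ILC1 libraries at 56.1 and 31.0 CPM. Fyn kept a wider gap, at 339 CPM there and at most 199 CPM in ILC1 libraries, as did Vav3, at 22.4 CPM and at least 28.4 CPM.

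Of the 3 genes of phosphatases that ITIMs recruit, Inpp5d was lower at an unadjusted p under 0.05, and DESeq2 called 0. Ptpn6, which encodes SHP-1, had 296 ± 129.6 CPM in ILC1 samples and 274 ± 82.0 CPM in NK cells, Ptpn11 (SHP-2) 112 ± 4.90 CPM in ILC1 samples and 109 ± 3.96 CPM in NK cells, and Inpp5d (SHIP-1) 249.7 ± 61.9 CPM in ILC1 samples and 402 ± 86.5 CPM in NK cells. The groups overlapped for all 3. Of 11 genes of MHC class I ligands and their assembly, 5 were lower at an unadjusted p under 0.05 and DESeq2 called 5 lower, with a median log2 fold change of -0.25. H2-K1, the ligand gene of Ly49C and Ly49I, had 3833 ± 83.0 CPM in ILC1 samples and 5579 ± 738 CPM in NK cells. H2-Q6, H2-Q7 and H2-Q4 had log2 fold changes of -1.12, -1.004 and -0.76, and as near-identical genes their reads may be shared.

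Of 14 genes of transcription factors known in Ly49 expression or group 1 cells, 4 were lower at an unadjusted p under 0.05, DESeq2 called 3 lower and the median log2 fold change was -0.41. Tcf7, which encodes TCF-1, a factor needed for Ly49A, stood at 238, 195 and 100.3 CPM in ILC1 replicates 1 to 3, against 592, 654 and 453 CPM in NK replicates 1 to 3. Eomes stood at 170, 137 and 68.4 CPM in ILC1 replicates 1 to 3, against 562, 559 and 361 CPM in NK replicates 1 to 3. Both genes had their lowest level in ILC1 replicate 3, as had Klra4 and Klra8. Klra1 (Ly49A) did not: among ILC1 libraries it was highest there, at 28.6 CPM, against 26.0 and 27.7 CPM in replicates 1 and 2. Klra5 was also highest in that library. A link between these factors and the Klra levels was not tested. Ikzf1 had 230 ± 19.1 CPM in ILC1 samples and 401 ± 71.2 CPM in NK cells, and Lef1 23.7 ± 9.27 CPM in ILC1 samples and 43.6 ± 4.09 CPM in NK cells.

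The NK gene complex on the same chromosome holds other lectin-like genes, receptor genes among them. Of 15 listed, 11 were lower and 1 was higher at an unadjusted p under 0.05, while DESeq2 called 10 lower and 1 higher. Over all genes 8.82% were lower and 6.95% higher at that unadjusted p, and DESeq2 called 4.03% lower and 2.94% higher. The median log2 fold change was -1.02 for the list and 0.081 for all genes. Klrc2, an activating NKG2 receptor gene, had 36.8 ± 10.8 CPM in ILC1 samples and 175 ± 30.4 CPM in NK cells, and Klri2 117 ± 27.3 CPM in ILC1 samples and 508 ± 117 CPM in NK cells. Clec2d had 57.5 ± 5.10 CPM in ILC1 samples and 130 ± 16.95 CPM in NK cells, and Klrc3 5.33 ± 1.40 CPM in ILC1 samples and 23.04 ± 3.56 CPM in NK cells. The edgeR adjusted p-values of these 4 ran from 0.0830 to 0.0959.

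Genes whose profile over the 6 libraries was most like that of the summed Ly49 level were found by the root-mean-square distance of centred log2 CPM among 8829 genes with at least 10 CPM on average. Among the nearest 6 were Klrc2 (0.119), Cpne7 (0.159), Baiap3 (0.174), Klri2 (0.174) and Gzma (0.190), in log2 units, where the median gene was at 1.28. Klrc2 stood at 45.9, 39.8 and 24.9 CPM in ILC1 replicates 1 to 3, against 198, 187 and 141 CPM in NK replicates 1 to 3. Like the summed Ly49 level, it had its lowest value in ILC1 replicate 3 and, among NK libraries, in replicate 3. That likeness follows from its choice as the nearest profile in these same libraries.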

How the data were processed

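RNA from 3 ILC1 and 3 NK samples was sequenced in single-end reads of 50 bases after poly(A) selection, per the labels' protocols. The authors deposited raw counts per gene symbol; the tools were HISAT2 2.1.0 and featureCounts 2.0.1 on GRCm38, per the submitters' processing notes. Annotation release, strand setting and treatment of multiply mapping reads: not given in the sources used here. Antisense or near-identical genes may share or lose reads, and PCR copies are counted.

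All 55291 rows carry a symbol, and each column name matched 1 sample. Counts were fitted with edgeR 4.0.16 in R 4.3.3 (TMM, filterByExpr, robust quasi-likelihood, cell type as the only term, 14475 genes, Benjamini-Hochberg threshold 0.05). The SE is the log2 fold change divided by the root of F. Alternatives used DESeq2 1.42.0, limma-voom (limma 3.58.1), other scalings and filters, a replicate block, left-out libraries, and library sets defined after the data were seen (ILC1 replicates 1 and 2 together with NK replicate 3; ILC1 replicate 3 alone; the other NK libraries). The fit was tested on simulated counts. No pair of libraries was a duplicate: the smallest median chi-square per gene was 2.42.

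Exons and transcripts came from GENCODE M21, promoters from RefSeq on GRCm38.p6, and identities from global alignments in Biopython 1.88 over aligned bases. Members, lists and roles were chosen with earlier results of these data known. The rule for names took all 10 members, other Klra rows, up to 4 genes of the smallest p per pathway list, up to 3 of the highest level per marker list, and the 6 most similar profiles, 1 of which is not reported here. Some marker genes that it names are given only as list sums.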

Additional observations from a re-analysis of the deposited data

How the results depend on the processing

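Across 14 alternatives, all 126 refitted log2 fold changes of the 9 tested members kept their sign, and 22 of them passed the threshold. Against 12 genes and 0 members called, the counts were 138 genes and 5 members with no low-count filter, 1010 and 9 with DESeq2, and 33 and 4 with library sets as a term. With single libraries left out they ran from 0 to 449 genes and from 0 to 2 members: 22 genes and 2 members (Klra8 and Klra9) without ILC1 replicate 3, 449 and 2 (Klra7 and Klra1) without NK replicate 3, and 0 of both without any of the other 4 libraries, where 1266 to 2026 genes were at an unadjusted p under 0.05. The cause was not tested. With no low-count filter 26185 genes and 10 members were tested, and of the members called 4 were lower and 1 was higher. DESeq2 and the fit with library sets each tested 14475 genes and 9 members. Fits with a library left out tested 14973 to 15089 genes and 9 or 10 members. RLE and upper-quartile scaling, limma-voom and a minimum mean of 5 CPM called 0 members and 13 to 18 genes. With the replicate block edgeR called 0 genes and 0 members, with 1584 genes at an unadjusted p under 0.05. Same-numbered libraries deviated from their group means in opposite directions (Pearson r across genes -0.363, -0.355 and -0.564). These values gave no sign of pairing by number. They cannot show whether same-numbered samples came from the same mice, as the libraries also differed in markers of other cells. The difference in activating share ran from -28.4 to -15.9 percentage points with single libraries left out. The edgeR adjusted p of Klra4 ranged up to 0.468 and that of Klra5 up to 0.386 over these alternatives. Klra17 had too few counts for a test except with no filter and in some fits with a library left out. With 16931099 to 20224847 counts per library, depth limited Klra17 and Klra10 in ILC1s more than the other members.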
